A study of Mus musculus with 4 samples.

Results

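Genes of striated muscle, the tissue of heart and limb muscle, were followed in mouse lung after inhalation of hexamethylene diisocyanate (HDI), a reactive monomer of polyurethane paints. The set was chosen by name: Acta1, Actc1, Mb, Myh6, Tnnt2, Tnni3, Myl4, Myl7 and Ckm, with every probe set whose platform symbol was one of them. It was chosen with earlier results of these data known. All 9 genes were on the array, through 13 probe sets, among 8251 genes and 10833 probe sets with a single gene symbol. Total RNA came from the whole lungs of mice of the inbred strain C57BL/6J, pooled within each group and read on 1 Affymetrix oligonucleotide array per pool. The groups were lungs of unexposed mice and lungs collected 6, 18 and 90 h after an HDI aerosol of 10 mg per cubic metre. The unexposed pool is titled as 0 h. The age and sex of the mice, the number per pool and the length of exposure are not stated in the labels.

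A striated muscle fibre shortens when thick filaments of myosin pull on thin filaments of actin, and troponin on the thin filament switches this on with calcium. Heart atria, heart ventricles and fast and slow limb muscle each use their own genes for the same parts. In mice, heart muscle cells of the atrial kind run from the left atrium along the walls of the pulmonary veins into the lung, so heart transcripts are a known part of whole lung RNA in this species. Whole lung RNA does not show which cells a transcript came from, and in a pooled organ fewer cells of a type cannot be told apart from less RNA per cell.

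Since each pool was read once, replicate error is unknown, no test was made and every fold describes these 4 arrays. The number of arrays limits the precision. Intensities are given in units after scaling the arrays to a common trimmed mean. Values under a floor of 77.7 units, the 40th percentile of all scaled values, were set to the floor before a fold was taken. A fold against a pool at the floor is written as at least N-fold, and genes at the floor in both pools got none. Genes were called at 2-fold. As a rough scale for noise, probe sets of the same gene disagreed with a robust SD of 0.27, 0.28 and 0.25 on the log2 scale for the 6, 18 and 90 h comparisons with unexposed lungs, which leaves out variation between animals and pools. The 4 arrays had median deposited intensities of 97.7 to 108 units. The lung markers Sftpc, a type II cell surfactant protein, Scgb1a1, a club cell secretory protein, and Ager, a type I cell receptor, were bright in all 4 pools, with lowest readings of 9136, 8006 and 4039.9 units, and 1 of 10 lung markers on the array, Sftpd, was at the floor in all of them. Kdr, a growth factor receptor of blood vessel lining cells, was the lung marker past 2-fold. It read 327 units in unexposed lungs and 133, 319 and 411 at 6, 18 and 90 h, and was 2.46-fold lower at 6 h.

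Acta1, Actc1 and Myl7 were the members with a CArG box, the site bound by serum response factor, in their promoter window. Their windows are shown because these genes share the box, while Acta1 was higher at 6 and 18 h than in unexposed lungs and Actc1 and Myl7 were lower by like amounts. The windows are from RefSeq (GRCm38.p6), which had a window for all 9 genes, 12 windows in all, and run from 250 bases before to 50 bases after the annotated start. They are printed 5' to 3' on the strand of the gene, which is the minus strand for all 3, with the CArG box in capitals.
Acta1, chr8:123894726-123895025: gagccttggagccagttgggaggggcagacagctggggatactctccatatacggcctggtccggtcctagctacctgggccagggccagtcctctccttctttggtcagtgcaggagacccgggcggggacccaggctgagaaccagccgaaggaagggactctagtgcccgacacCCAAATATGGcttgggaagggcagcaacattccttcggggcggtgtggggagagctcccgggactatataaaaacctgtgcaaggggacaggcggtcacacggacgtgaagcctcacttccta
Actc1, chr2:114052826-114053125: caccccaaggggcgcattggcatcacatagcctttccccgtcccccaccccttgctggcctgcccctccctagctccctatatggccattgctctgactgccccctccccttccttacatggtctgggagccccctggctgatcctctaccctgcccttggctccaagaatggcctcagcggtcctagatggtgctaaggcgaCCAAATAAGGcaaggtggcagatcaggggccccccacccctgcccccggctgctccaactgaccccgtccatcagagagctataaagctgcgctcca
Myl7, chr11:5898733-5899032: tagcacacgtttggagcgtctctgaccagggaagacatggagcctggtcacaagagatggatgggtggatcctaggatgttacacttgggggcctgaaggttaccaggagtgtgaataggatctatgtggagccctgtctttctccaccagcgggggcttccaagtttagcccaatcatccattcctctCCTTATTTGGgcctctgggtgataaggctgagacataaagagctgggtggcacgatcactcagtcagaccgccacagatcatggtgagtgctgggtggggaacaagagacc

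The first base of the box lay at position -73 in Acta1, -47 in Actc1 and -61 in Myl7, counted from the annotated start. Of 32851 promoter windows in the RefSeq table, 1.63% held a CArG box on either strand. No member window held a MEF2 box, the site of another muscle factor, against 3.19% of all windows. The M-CAT motif CATTCC was present in 4 members (Myh6, Myl7, Acta1 and Tnnt2), against 14.7% of all windows. The E-box CANNTG was present in 8 members, all but Myl4, against 72.3%. A member was counted if any of its windows matched, and Tnnt2 and Mb had several, while the shares are of single windows. The counts and shares are thus not like for like. The E-box, the MEF2 box and M-CAT were also searched on both strands, and no CArG box overlapped another of these matches. A match describes letters in a window and does not show binding.

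Acta1, which encodes the skeletal muscle actin of the thin filament, had the widest differences of the 9 members at 6 and 18 h. Its probe set read 7.25 units in the unexposed pool, 611 at 6 h, 392 at 18 h and 1.69 at 90 h. The 6 and 18 h pools were high, and the unexposed and 90 h pools lay far under the floor. Against unexposed lungs Acta1 was at least 7.86-fold higher at 6 h and at least 5.05-fold higher at 18 h. These folds are lower bounds set by the floor, so Acta1 was not ranked among the other genes. At 90 h both pools were at the floor and no fold can be given. From 6 to 18 h Acta1 was 1.56-fold lower, and from 18 to 90 h at least 5.05-fold lower. The gene had a single probe set on the array, so no second reading of it exists here.

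**Figure D1:**
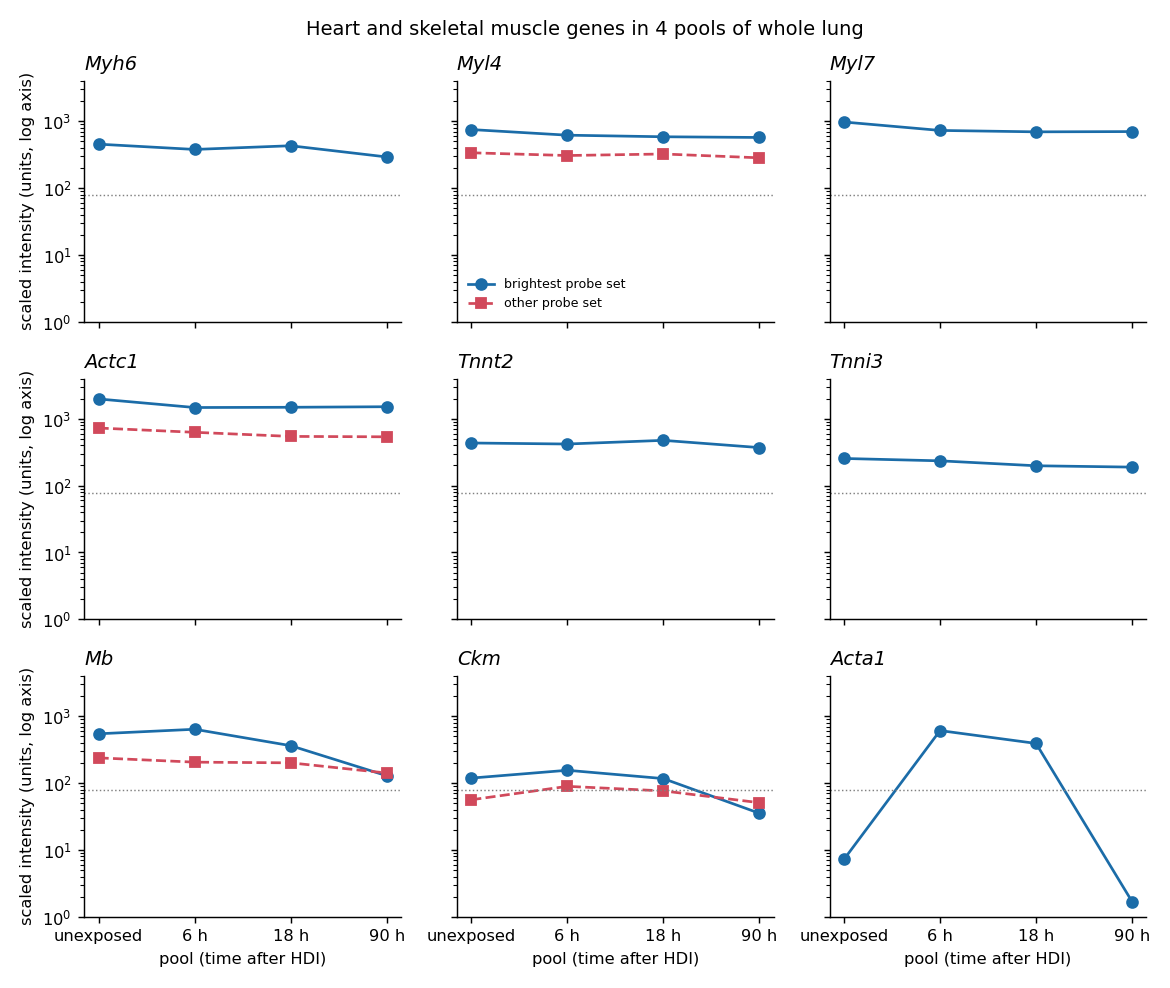
Scaled intensity of each of the 9 genes (units, log axis) in the 4 pools, with 1 point per pool, circles for the brightest probe set, squares for the other one where there is one, and the floor of 77.7 units as a dotted line. Acta1 stands at 611 and 392 units at 6 and 18 h and under the floor in the other pools, Mb and Ckm are lowest at 90 h, and the other 6 genes stay within narrow bands.

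Among the other thin filament genes no difference reached 2-fold at any time. Actc1, the heart muscle actin, read 1979 units in unexposed lungs and 1473, 1486 and 1514 at 6, 18 and 90 h by its brightest probe set. It was thus 1.34-fold, 1.33-fold and 1.31-fold lower in the exposed pools. Its other probe set read 727, 627, 545 and 537 units in the same order, with the unexposed pool again highest. The suffixes of both Actc1 probe sets mark possible cross-hybridisation, and neither was higher in the pools where Acta1 was high.

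No other gene of the actin family on the array was high with Acta1. Acta2, the smooth muscle actin, was 1.44-fold lower at 6 h and had a log2 difference of -0.05 at 18 h. Actg2, another smooth muscle actin, differed by -0.10 and -0.28. With unscaled values Acta2 was above 0 at 18 h and Actg2 at 6 h, by 0.09 and 0.02. Actg1, the cytoplasmic gamma actin, had log2 differences of 0.24 and 0.17. Actb, the cytoplasmic beta actin, had log2 differences of -0.39 and -0.71 by a dim probe set. The bright control probe sets for beta actin were near level, at -0.10 and -0.04 for the 3' end and 0.11 and 0.10 for the 5' end. Acta1 was the only one of the 6 actin genes past 2-fold at 6 or 18 h.

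Of the heart troponin genes, Tnnt2 was close to level, and Tnni3 read lower at 18 and 90 h than in unexposed lungs. Tnnt2 encodes the heart troponin T that ties the complex to tropomyosin, and it read 434 units in unexposed lungs and 419, 476 and 371 at 6, 18 and 90 h. Its 18 h pool was highest and its 90 h pool lowest, with a span of 1.28-fold. Tnni3, the inhibitory troponin of adult heart, read 255 units in unexposed lungs and 235, 198 and 189 at 6, 18 and 90 h. Each later pool was below the one before, and the 90 h pool was 1.35-fold lower than the unexposed one.

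The 3 thick filament genes read highest in unexposed lungs after scaling, and with deposited values unscaled the 18 h pool of Myh6 was highest, at 444 units against 424 in unexposed lungs. Myh6, the fast heart myosin heavy chain, read 455 units there and 379, 430.5 and 293 at 6, 18 and 90 h. Its 90 h pool stood apart as the lowest, 1.55-fold under the unexposed pool and 1.47-fold under the 18 h pool. Myl7, the atrial regulatory light chain, read 975 units in unexposed lungs and 729, 695 and 701 at 6, 18 and 90 h. The 3 exposed pools of Myl7 were alike, and each was lower than the unexposed pool, by 1.34-fold, 1.40-fold and 1.39-fold. Myl4, the atrial essential light chain, read 752 units in unexposed lungs and 619, 586 and 573 at 6, 18 and 90 h by its brightest probe set. The other Myl4 probe set read 338, 307, 324 and 284 units, with the unexposed pool highest and the 90 h pool lowest in both.

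Mb and Ckm, which serve oxygen and energy supply, were lowest at 90 h. Mb encodes myoglobin, the oxygen store of heart and slow limb muscle, and read 547 units in unexposed lungs and 639, 363 and 129 at 6, 18 and 90 h by its brightest probe set. The 6 h pool was the highest and the 90 h pool stood far below the others. Mb was 4.24-fold lower at 90 h than in unexposed lungs, and 5 of 6062 genes compared had a more negative log2 difference with readings under the floor kept at the floor. Its other probe set, which carries the same sequence accession, read 238, 206, 201 and 142 units in the unexposed, 6, 18 and 90 h pools. That probe set was also lowest at 90 h but differed less from unexposed lungs there, with a log2 difference of -0.75 against -2.08 for the brightest one. At 6 h the Mb probe sets had opposite signs, 0.22 for the brightest and -0.21 for the other.

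Ckm encodes the muscle form of creatine kinase, which regenerates ATP in working fibres. It read 119 units in unexposed lungs and 156, 117 and 35.4 at 6, 18 and 90 h. The 90 h pool was under the floor, and Ckm was at least 1.53-fold lower there than in unexposed lungs. Its dimmer probe set, which carries such a suffix too, was above the floor only at 6 h, at 89.4 units. Mb and Ckm, by their brightest probe sets, had their highest reading at 6 h and their lowest at 90 h, while Tnni3, Myl4, Myl7 and Actc1 were highest in unexposed lungs. Over the 7 members above the floor in all pools, 14 of 21 neighbouring pairs in the order of the pools differed by less than the noise scale for that pair of pools. The pairs clearly beyond it were the unexposed pool and the next for Myl7 and Actc1, 6 and 90 h for Myh6 (0.37 against a scale of 0.26), and for Mb the unexposed and 18 h pools and the 18 and 90 h pools. The unexposed and 6 h pools of Myl4 differed by little more than the scale (0.28 against 0.27), and the 6 and 18 h pools of Tnni3 by about as much as it (0.24).

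Counted over the set, 1 of 9 members was at least 2-fold higher at 6 h, which was Acta1, where 2.17% of all genes compared were. No member was at least 2-fold lower at 6 h, where 1.51% of all genes were. At 18 h 1 of 9 was higher, again Acta1, beside 1.59% of all genes, and none was lower, beside 0.944%. At 90 h 1 of the 8 members compared was lower, which was Mb, beside 0.924% of all genes, and none was higher, beside 0.726%. Acta1 was not compared at 90 h. From 6 to 18 h no member passed 2-fold in either direction, beside 1.18% higher and 1.17% lower of all genes. From 18 to 90 h Acta1 and Mb were lower, 2 of 9 members beside 0.954%, and none was higher, beside 0.903%. With 9 members, a count of 1 or 2 rests on those genes alone. The members were chosen with earlier results of these data known, so the shares beside them serve as description only.

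The median log2 difference of the members against unexposed lungs was -0.12, -0.36 and -0.45 at 6, 18 and 90 h, beside -0.04, -0.01 and 0.03 for all genes compared. At 6 h 6 of 9 members were below 0, where 54.6% of all genes were, and at 18 h 7 of 9, beside 51.9%. At 90 h all 8 members compared were below 0, beside 46.2% of all genes. Ckm, under the floor at 90 h, could only be below 0 there, and the other 7 were measured in both pools, with a median of -0.43. In the same way Acta1 could only be above 0 at 6 and 18 h. From 6 to 18 h 6 of 9 were below 0, beside 50.7% of all genes, and from 18 to 90 h 7 of 9, beside 46.9%. The 3 comparisons with unexposed lungs share the unexposed array, so a high reading of a gene on that array lowers all of them together. With deposited values left unscaled, the medians of all genes shifted to 0.07, 0.12 and 0.16 and those of the members to -0.01, -0.21 and -0.31. At 90 h the 8 members were below 0 under all 5 scalings, unscaled values included. With unscaled values 5 of 9 were below 0 at 6 h and 5 of 9 at 18 h. From 6 to 18 h the count was 6 or 7 over the scalings, and from 18 to 90 h it ran from 6 with quantile normalization to 9 with median scaling. The signs of Tnnt2 at 6 h and of Myh6 and Ckm at 18 h changed with the scaling, as did those of Actc1 from 6 to 18 h and of Actc1, Myl4 and Myl7 from 18 to 90 h.

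**Figure D2:**
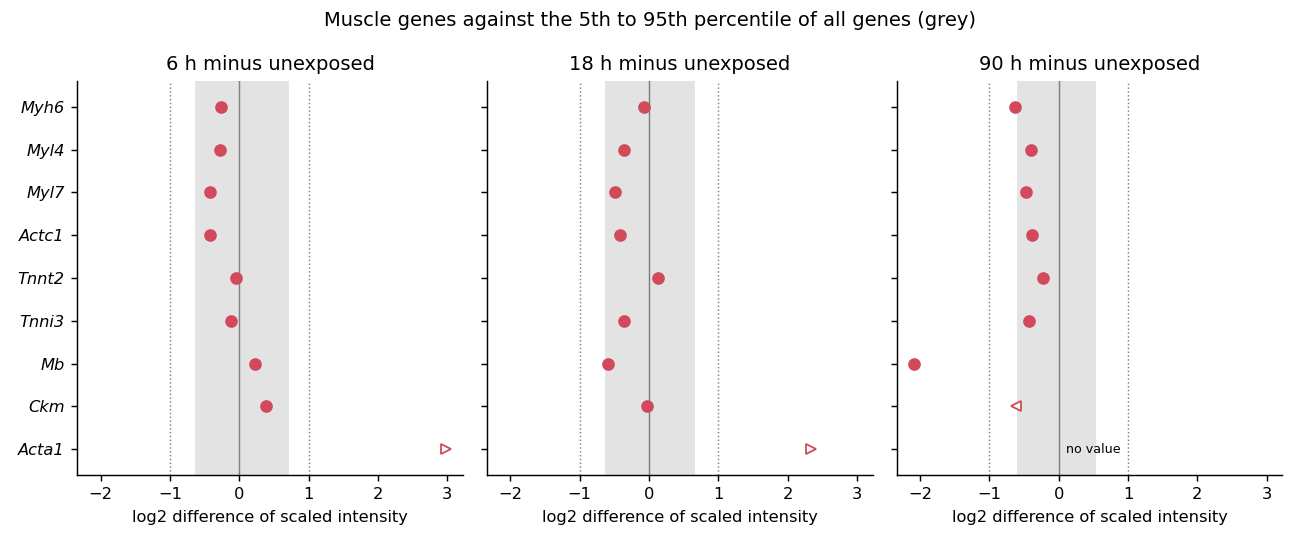
Log2 difference of each of the 9 genes, exposed minus unexposed, at 6, 18 and 90 h, with the 5th to 95th percentile of all genes compared as a grey band and 2-fold as dotted lines. Filled circles are measured in both pools and open triangles are bounds at the floor. Acta1 lies far right of the band at 6 and 18 h and Mb far left of it at 90 h (-2.08), and at 90 h all 8 values lie left of 0.

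Over the 4 pools the members differed in how even they were. The 5083 genes above the floor in all pools had a median range of 0.44 log2 units. Tnnt2, Myl4, Actc1, Tnni3 and Myl7 had ranges of 0.36, 0.39, 0.43, 0.43 and 0.49, near that median. Myh6 had a range of 0.64, and 24.9% of the genes were wider. Mb had a range of 2.31 by its brightest probe set, and 0.354% of the genes were wider. Its other probe set was highest in unexposed lungs and lowest at 90 h, with a log2 difference of -0.75 between them. Acta1 and Ckm were under the floor in at least 1 pool and have no measured range.

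Other heart genes also mostly read lower at 90 h than in unexposed lungs. Of 50 further heart genes listed, 40 were on the array and 10 of these were at the floor in all pools. Their median log2 difference was 0.02, -0.14 and -0.27 at 6, 18 and 90 h. Of those compared, 15 of 30, 18 of 29 and 23 of 29 were below 0, beside 54.6%, 51.9% and 46.2% of all genes. At 90 h 5 of the 23 were above the floor in unexposed lungs only, which fixed their sign, and of the 24 measured in both pools 18 were below 0, with a median of -0.29. Des, the muscle filament protein desmin, read 450.2 units in unexposed lungs and 363, 485 and 284 at 6, 18 and 90 h, and was 1.58-fold lower at 90 h. Slc2a4, the insulin-responsive glucose transporter of muscle and fat, had log2 differences of -0.23, -0.58 and -0.63. Nppa, the atrial natriuretic peptide, read 244 units in unexposed lungs and 181, 163 and 160 at 6, 18 and 90 h, and was 1.53-fold lower at 90 h. Casq2, which stores calcium in heart muscle, was 1.58-fold lower at 90 h, and Tnnc1, the calcium sensor of the troponin complex in heart and slow muscle, 1.34-fold lower. Nkx2-5, a transcription factor of heart muscle cells, had log2 differences of 0.05, -0.19 and -0.27. It was the lowest at 90 h of the 6 heart transcription factors compared. Of these 3 were below 0 there and 3 above, with a median of -0.01.

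Chamber markers of the heart were read beside the members. Myl2 and Myl3, light chains of the ventricle, were at the floor in all pools, while the atrial light chain genes Myl4 and Myl7 were well above it. Sln, an atrial calcium pump regulator, Bmp10, an atrial growth factor, and the channel genes Kcnj3 and Kcnj5 were at the floor as well. Myh7, the slow heart myosin heavy chain, read 429 units in unexposed lungs and 403, 440 and 383 at 6, 18 and 90 h by its brightest probe set. Both Myh7 probe sets were above the floor in all pools, and their suffixes mark possible cross-hybridisation. A probe set at the floor says little of its transcript, and levels are not compared between probe sets.

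At 6 h 2 of the 30 further heart genes compared were at least 2-fold higher, beside 2.17% of all genes, and at 18 h 2 of 29, beside 1.59%. Ankrd1, a stretch-responsive protein of heart and injured tissue, read 101 units in unexposed lungs and 273, 374 and 70.9 at 6, 18 and 90 h. It was 2.70-fold and 3.70-fold higher at 6 and 18 h and at the floor at 90 h, so its high and low pools were those of Acta1. Pdk4, a kinase that slows glucose oxidation in fasting, was at least 3.27-fold higher at 6 h. Gja1, the gap junction protein connexin 43, which many cell types make, was 2.35-fold higher at 18 h and 1.66-fold higher at 90 h. None of the further heart genes passed 2-fold at 90 h, beside 0.726% higher and 0.924% lower of all genes.

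**Figure D3:**
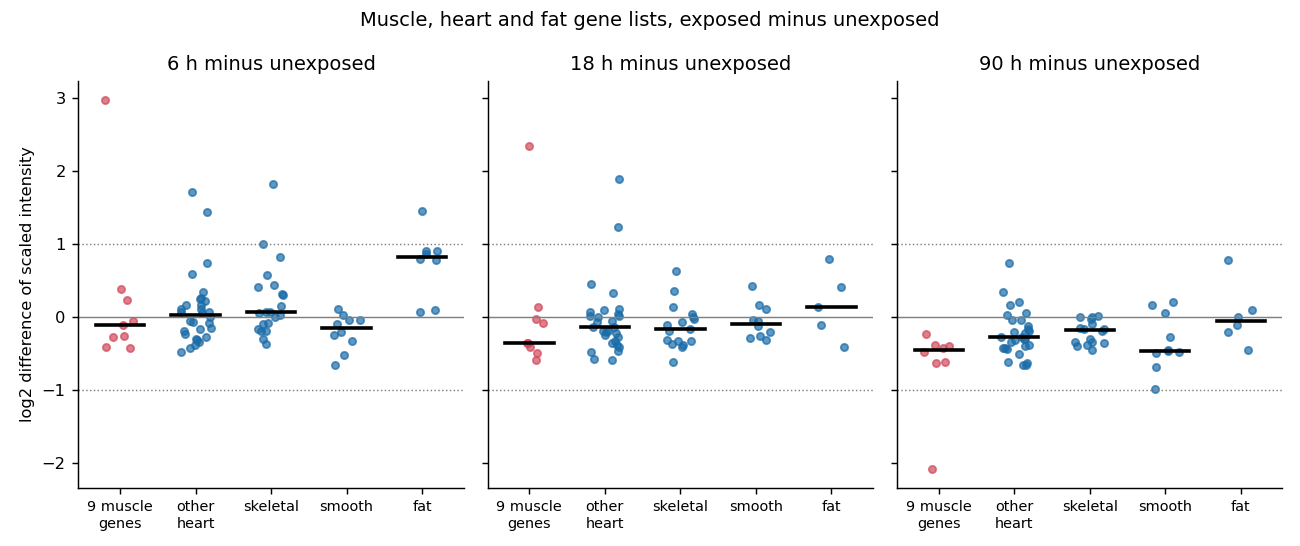
Log2 difference from unexposed lungs at 6, 18 and 90 h for the 9 muscle genes and for the lists of other heart, skeletal muscle, smooth muscle and fat genes, with 1 point per gene compared, bounds at the floor included, and the median as a bar. The fat list has the highest median at 6 h (0.82, with 3 of its 8 values bounds), and the 9 muscle genes (-0.45) and smooth muscle genes (-0.46) have the lowest at 90 h.

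Smooth muscle genes, which mark airway and vessel walls, also mostly read lower at 90 h. Under every scaling 7 of 10 were below 0, beside 30.1% to 46.8% of all genes. Of 15 listed, 11 were on the array and 10 compared. Their median log2 difference was -0.15, -0.09 and -0.46 at 6, 18 and 90 h, and none passed 2-fold. Of all genes 2.17%, 1.59% and 0.726% were at least 2-fold higher at these times, and 1.51%, 0.944% and 0.924% lower. With unscaled values the 18 h median of the smooth muscle genes was 0.05. Tpm2, a tropomyosin, was 1.98-fold lower at 90 h and Myh11, the smooth muscle myosin, 1.60-fold. Their summed level was 7078, 6210, 6861 and 5934 units in the unexposed, 6, 18 and 90 h pools, and their part in the members' 90 h readings was not tested. Of the 9 lung markers compared at 90 h, 7 were below 0 too, with a median of -0.09. With unscaled values 3 of those 9 were below 0.

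Some genes of limb-type skeletal muscle were high in the 6 h pool. Of 38 listed, 34 were on the array and 13 of these were at the floor in all pools. Of the 21 compared at 6 h, 6 were above the floor at 6 h only, which fixed their sign, and 1 in unexposed lungs only. Of the 14 measured in both pools 8 were above 0, with a median of 0.04, beside 45% of all genes measured in both and a median of -0.04. At 6 h 1 of the 21 passed 2-fold, which was Myl1, higher there, beside 2.17% of all genes. Myl1, a fast fibre light chain, read 65.4 units in unexposed lungs and 275, 56.9 and 38.8 at 6, 18 and 90 h. It was at least 3.54-fold higher at 6 h. Atp2a1, the calcium pump of fast fibres, read 147 units in unexposed lungs and 293, 226 and 146 at 6, 18 and 90 h, just short of 2-fold at 6 h and past it with unscaled values. Myf6, a muscle regulatory factor, read 228 units in unexposed lungs and 403, 175 and 178 at 6, 18 and 90 h.

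Several fast fibre genes were above the floor in the 6 h pool alone. Myh1, a fast myosin heavy chain, read 11.5 units in unexposed lungs and 115, 52.9 and 1.93 at 6, 18 and 90 h. Tnnt3, the fast troponin T, read 33.1, 106, 59.9 and 23.9 units in the same order. For Myh4, another fast myosin, the probe set without a marked suffix read 19.1, 94.0, 15.4 and 7.81 units, while its marked probe set stayed under the floor. Other fast fibre genes did not follow, such as Tnnc2, the fast troponin C, with a log2 difference of -0.08 at 6 h (0.03 with unscaled values). The summed level of the 34 skeletal muscle genes was 3624, 4387, 3320 and 3114 units in the unexposed, 6, 18 and 90 h pools.

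These markers are given beside Acta1 because they were high in the same 6 h pool, and their part in its reading was not tested. At 18 h Acta1 was still at 392 units, while Myl1, Myh1, Tnnt3 and Myh4 were under the floor and Atp2a1 was 1.54-fold higher than in unexposed lungs. Of 17 skeletal muscle genes compared at 18 h none passed 2-fold, and their median log2 difference was -0.16. Of all genes 1.59% were higher and 0.944% lower there. At 90 h 15 of the 16 skeletal muscle genes compared were below 0, beside 46.2% of all genes. None passed 2-fold, beside 0.726% higher and 0.924% lower of all genes. All 13 measured in both pools were below 0, with a median of -0.31, beside 2473 of the 5383 genes measured in both. With unscaled values 11 of 16 were below 0, beside 30.1% of all genes.

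Fat markers were high in the same pool. Of 13 listed, 9 were on the array, and 8 were compared at 6 h. Ucp1, Cidea and Pck1 were above the floor at 6 h only, which fixed their sign. The other 5 were measured in both pools and all were above 0 by their brightest probe sets, with a median log2 difference of 0.79. Lep, a fat cell hormone among these, differed by 0.07 through a probe set with a marked suffix. Its unmarked probe set was lower at 6 h, at 111 units against 132 in unexposed lungs. Retn, a hormone of mouse fat cells, was also among the 5 and was 1.72-fold, 1.74-fold and 1.71-fold higher at 6, 18 and 90 h. Ucp1, the uncoupling protein of brown fat, read 19.5 units in unexposed lungs and 141, 18.9 and 5.45 at 6, 18 and 90 h by its brightest probe set. Fabp4, a fatty acid carrier of fat cells, macrophages and capillaries, was 2.74-fold higher at 6 h. It was the only 1 of the 8 fat genes past 2-fold there, beside 2.17% of all genes, while with unscaled values 2 fat genes were. Lpl, the lipase that frees fatty acids from lipoproteins, was 1.87-fold higher at 6 h. The summed level of the 9 genes was 1125, 2307, 1258 and 1129 units in the unexposed, 6, 18 and 90 h pools. Their part in the Acta1 reading was not tested, and with 1 pool per time the make-up of the collected tissue cannot be told apart from a change within the lung.

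**Figure D4:**
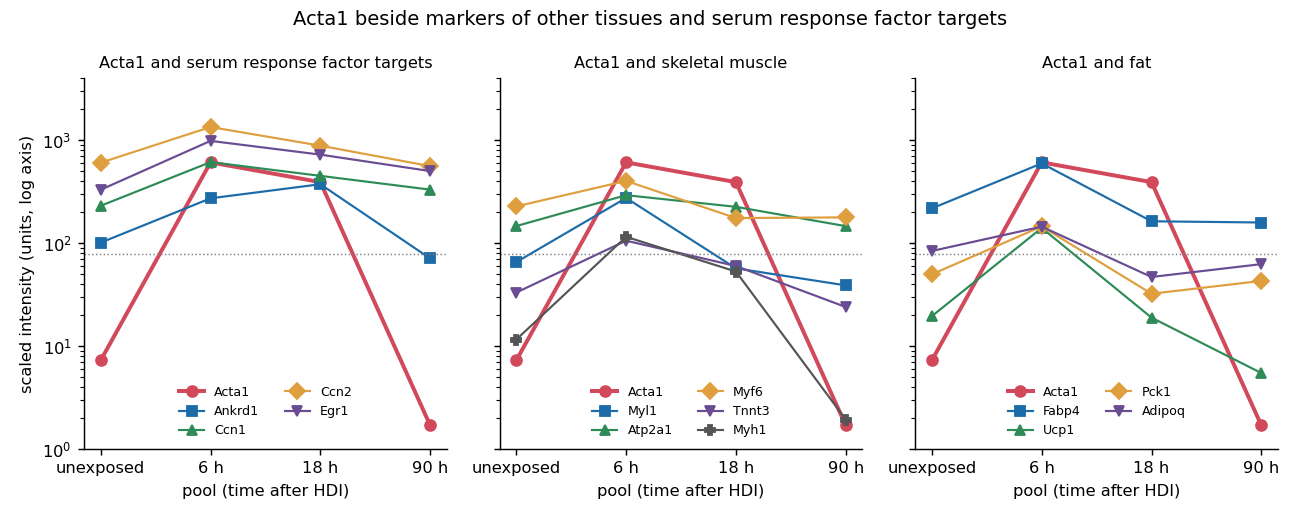
Scaled intensity (units, log axis) of Acta1 beside Ankrd1 and targets of serum response factor (left), skeletal muscle genes (middle) and fat genes (right) in the 4 pools, with 1 point per pool and the floor as a dotted line. Myl1, Tnnt3, Myh1, Ucp1 and Pck1 are above the floor at 6 h only, while Acta1 (392 units) and Ankrd1 (374 units) are also high at 18 h.

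Serum response factor drives Acta1, Actc1 and many stimulus-induced genes, and its targets outside muscle were read as well. The part of this factor in the Acta1 reading was not tested. Of 15 listed, 14 were on the array and 12 compared. At 6 h 5 passed 2-fold, all of them higher, beside 2.17% of all genes, and the median log2 difference of the list was 0.57. At 18 h 2 were higher, beside 1.59%, with a median of 0.36, and the count was 4 with unscaled values and 3 with median scaling. At 90 h 1 was higher, beside 0.726%, with a median of 0.26. Fos, an immediate early transcription factor, read 182 units in unexposed lungs and 534, 358 and 422 at 6, 18 and 90 h, and was 2.94-fold higher at 6 h and 2.33-fold at 90 h. Junb, its partner in the same factor, read 349.6 units in unexposed lungs and 784, 814 and 447 at 6, 18 and 90 h, and was 2.24-fold higher at 6 h and 2.33-fold at 18 h. Ccn1 and Ccn2, matricellular proteins, were 2.66-fold and 2.22-fold higher at 6 h, and Egr1, another immediate early factor, 2.99-fold. At 18 h Egr1 had a log2 difference of 1.13. Vcl, vinculin, had a log2 difference of 0.27 at 6 h by its brightest probe set. Its other probe set, which was dimmer, differed more, with 94.4 units in unexposed lungs and 184, 197 and 152 at 6, 18 and 90 h. Fhl2, a LIM protein, had a log2 difference of 0.00 at 6 h.

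Of all genes with a promoter window, 100 compared at 6 h held a CArG box, and 5 of these, or 5%, were at least 2-fold higher, beside 2.15% of the 4841 genes with a window. In the other direction 3 of the 100 were at least 2-fold lower, beside 1.55%. At 18 h 3 of 97 were higher, beside 1.61%, and none was lower, beside 0.887%. At 90 h 1 of 95 was higher, beside 0.701%, and none was lower, beside 0.969%. The median log2 difference of the genes with a CArG box at 6 h was 0.00. Among the members with the box, Acta1 was past 2-fold higher at 6 and 18 h, so it is itself counted among the 5 and the 3. It was chosen with earlier results known, so these counts are no separate reading beside it. Actc1 and Myl7 had log2 differences of -0.43 and -0.42 at 6 h.

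The genes nearest to the members in pattern were found by root mean square distance of log2 values centred on their mean over the 4 pools. The median pattern of the 7 members above the floor in all pools spanned 0.45 log2 units, with the unexposed pool highest and the 90 h pool lowest. Among 4411 genes the nearest were Scgb1a1 (distance 0.02), Syt5, Arhgef25, Mms19, Xrcc1 and Ddx49 (0.03). Scgb1a1 read 10634 units in unexposed lungs and 8908, 8360 and 8006 at 6, 18 and 90 h. A span this small is near the noise scale, and many genes lie close to it.

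Acta1 was set beside 90 genes, those above the floor in all pools with a range of at least 50% of that of Acta1. Genes that reached the floor in a pool, such as Ankrd1, were left out by this rule. The nearest were Mt1, at a distance of 0.27, F3, the clotting initiator tissue factor, at 0.32, and Mt2 at 0.36. Gclc followed at 0.51, Hspa1b at 0.52 and Txnrd1 at 0.58. F3 read 164 units in unexposed lungs and 805, 526 and 91.5 at 6, 18 and 90 h. The Acta1 values at the floor were kept there for this measure, so its true range is wider. Likeness over 4 pools says nothing of shared control.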

How the data were processed

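The authors deposited 1 linear intensity per probe set and array, with exact zeros and no negative values. How the authors computed and scaled them is not stated in the labels or the file. There were 12488 probe sets, 66 of them controls. Of the rest, 10833 had 1 gene symbol in the platform annotation, 396 had several and 1193 were not listed. Only those with 1 symbol were used.

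Each array was scaled to a common mean after trimming 2% at each end, with factors of 1.07, 0.992, 0.970 and 0.972 for the unexposed, 6, 18 and 90 h pools. A floor at the 40th percentile was set and log2 taken. The brightest probe set by mean stood for a gene, and all probe sets of the members are given. Every exposed pool was compared with the unexposed pool, and each with the one before, without tests. The code was tested on simulated data. Python 3.11.15, numpy 2.4.6, pandas 2.3.3 and limma 3.58.1 were used. The alternatives were 4 scalings, 2 floors, a pseudocount of 50 units, other ways to combine probe sets, and thresholds of 1.5-fold and 3-fold.

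The members, the lists and the alternatives were chosen with earlier results of these data known. All 9 members were named throughout, and of the other lists the genes past 2-fold against unexposed lungs, up to 3 of those with the largest differences, and markers at the floor. Nppa, Tnnc1, Nkx2-5, Myh7, Actg1, Tnnc2, Tnnt3, Myh1, Myh4, Ucp1, Pck1, Cidea, Lep, Vcl, Fhl2, Sftpc and Ager were named after their values were seen.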

Additional observations from a re-analysis of the deposited data

How the results depend on the processing

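Of 388 values of single members under the alternatives, 385 kept their direction where past 2-fold and their side of 2-fold. A value inside 2-fold counted as kept even if its sign changed, as for Tnnt2 at 6 h (-0.05 to 0.06). All 50 medians moved by less than the noise scale, a loose limit, since that scale is for single probe sets. Against unexposed lungs they ran from -0.19 to -0.01 at 6 h, -0.36 to -0.21 at 18 h and -0.48 to -0.31 at 90 h. Acta1 stayed past 2-fold under every alternative, with log2 differences of 2.15 to 3.74 at 6 h and 1.51 to 3.10 at 18 h, since the bound follows the floor. Mb stayed more than 2-fold lower at 90 h than in unexposed lungs (-2.09 to -1.42). From 18 to 90 h Mb fell just short of 2-fold with its probe sets averaged, which left 1 lower member in place of 2. At 3-fold 1 was left as well, while at 1.5-fold, and also under the lower floor of the 25th percentile, there were 3, Ckm being the third. With the floor at the 25th percentile Ckm was also past 2-fold lower at 90 h, at -1.38 against unexposed lungs and -1.35 against 18 h, which made 2 lower members in place of 1 against unexposed lungs. At 1.5-fold there were 1, 3 and 2 lower members in place of 0, 1 and 0 at 18 h and 90 h against unexposed lungs and at 18 h against 6 h. Leaving out Acta1, chosen after seeing the data, gave medians of -0.19, -0.36 and -0.45 at 6, 18 and 90 h. No paired analysis was possible because each group has 1 array. Dim readings limit the precision of Ckm at every time and of Acta1 in the unexposed and 90 h pools.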
